A study of Mus musculus with 20 samples.

Results

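The chromosome 7 Trim cluster is a run of tripartite motif genes that lie side by side between Trim6 and Trim30d, and it was followed here in mouse bone marrow neutrophils. Its members were chosen by symbol, because Trim12a and its neighbours had stood out between genotypes in these same libraries, so every genotype value of a member below is a description and carries no test. Of 9 named members, 7 had a row in the count tables (Trim6, Trim34a, Trim12a, Trim12c, Trim30b, Trim30a and Trim30d), out of 24421 genes in all. Trim5 and Trim30c had no row and were not analysed here. All 7 counted members passed the filter on low counts, which kept 14030 genes.

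Bone marrow neutrophils were taken from wild-type mice (WT, C57BL/6J) and from Bmal1-myeloid conditional knockout mice (Bmal1 Mye-/-), each either untreated or given imiquimod (IMQ), with 5 libraries in each of the 4 groups. The Bmal1 Mye-/- line carries floxed Bmal1, a core clock gene listed as Arntl, which is removed by a Cre recombinase placed at Lyz2, which acts across myeloid cells and not in neutrophils alone. IMQ, an agonist of the endosomal RNA sensor Tlr7, was applied as a 5% cream to the ears 3 times per week for 6 weeks, starting at 8 to 10 weeks of age. All mice were female and were killed at ZT 1 to 4. The age of the untreated mice was not given in the sources used here. WT mice were purchased and Bmal1 Mye-/- mice were bred separately from floxed and Cre lines whose strain names record a 129 origin, so the loss of Bmal1, the Cre at Lyz2 and the strain of origin of chromosome 7 near Arntl cannot be told apart in any comparison of genotypes.

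Tripartite motif proteins carry a RING domain, which makes most of them ubiquitin ligases, followed by a B-box and a coiled coil, and many of this cluster end in a B30.2 domain that binds targets. The best known relative, TRIM5 of primates, binds retroviral capsids, and mice carry expanded sets of TRIM5-like (Trim5, Trim12a, Trim12c) and Trim30-like genes in its place. Trim30a is known as a brake on Toll-like receptor signalling to NF-kB and on the Nlrp3 inflammasome, Trim12c as a partner of Traf6 that promotes interferon and NF-kB signalling, and Trim6 as a ligase that makes free ubiquitin chains in the interferon response. Several of these genes are induced by type I interferon.

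On GRCm38 (mm10) the cluster spans chromosome 7 from 104218795 to 104507853, 289.1 kb, and ends 8.67 Mb before Arntl (113178471 to 113314126). Trim6 and Trim34a lie on the plus strand, and Trim12a, Trim12c, Trim30b, Trim30a and Trim30d on the minus strand. Trim34b, a near copy of Trim34a that is not a member, lies between Trim12a and Trim12c, and Gm15133 runs antisense to the start of Trim12a and overlaps its gene body.

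The promoters are shown because the genes come in close pairs whose levels part between genotypes. Each RefSeq window on GRCm38.p6 runs from 250 bases before the start of the gene to 50 after it, read in the direction of the gene, and capitals mark a match, on either strand, to GAAA followed by any 2 bases and a further GAAA, the core of the interferon-stimulated response element. The windows of the TRIM5-like pair were chr7:104315446-104315745 for Trim12a and chr7:104353300-104353599 for Trim12c, both on the minus strand.
Trim12a: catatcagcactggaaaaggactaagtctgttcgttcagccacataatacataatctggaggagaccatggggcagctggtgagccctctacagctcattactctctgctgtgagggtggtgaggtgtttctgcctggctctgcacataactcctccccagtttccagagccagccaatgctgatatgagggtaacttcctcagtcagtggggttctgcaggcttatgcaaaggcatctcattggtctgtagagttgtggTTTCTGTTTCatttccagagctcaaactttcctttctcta
Trim12c: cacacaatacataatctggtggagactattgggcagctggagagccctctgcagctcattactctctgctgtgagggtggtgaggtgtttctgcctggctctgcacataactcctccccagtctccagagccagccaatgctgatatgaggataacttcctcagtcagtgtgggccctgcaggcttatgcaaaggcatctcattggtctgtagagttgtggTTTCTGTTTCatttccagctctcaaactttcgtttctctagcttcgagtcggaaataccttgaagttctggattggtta
These windows were 95% identical over 260 aligned bases, and each held the motif, 11 bases after the start of Trim12a and at position -29 from that of Trim12c. The window of Trim5, which had no row, was 100% identical to that of Trim12a over 241 aligned bases.

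For the Trim30 pair the windows were chr7:104465144-104465443 for the first listed start of Trim30a and chr7:104507800-104508099 for Trim30d, both on the minus strand.
Trim30a: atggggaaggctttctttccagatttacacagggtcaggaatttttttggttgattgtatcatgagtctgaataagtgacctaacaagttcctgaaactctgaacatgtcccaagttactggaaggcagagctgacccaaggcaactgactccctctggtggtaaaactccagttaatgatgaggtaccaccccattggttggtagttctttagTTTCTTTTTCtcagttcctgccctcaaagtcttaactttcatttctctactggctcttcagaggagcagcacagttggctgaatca
Trim30d: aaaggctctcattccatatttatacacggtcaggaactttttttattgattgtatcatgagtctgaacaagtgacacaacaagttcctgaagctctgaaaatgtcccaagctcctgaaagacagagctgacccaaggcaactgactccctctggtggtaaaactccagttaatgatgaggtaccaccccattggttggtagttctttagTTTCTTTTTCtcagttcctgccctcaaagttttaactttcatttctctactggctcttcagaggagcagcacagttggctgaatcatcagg
They were 93.6% identical over 295 aligned bases, with the motif at positions -36 and -41. For the Trim34 pair the windows were chr7:104244207-104244506 for Trim34a and chr7:104329221-104329520 for Trim34b, both on the plus strand.
Trim34a: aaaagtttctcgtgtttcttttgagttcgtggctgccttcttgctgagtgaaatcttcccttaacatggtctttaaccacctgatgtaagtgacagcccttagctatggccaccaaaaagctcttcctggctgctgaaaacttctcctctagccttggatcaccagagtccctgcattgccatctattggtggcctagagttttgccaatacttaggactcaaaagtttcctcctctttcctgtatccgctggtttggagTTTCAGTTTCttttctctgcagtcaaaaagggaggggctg
Trim34b: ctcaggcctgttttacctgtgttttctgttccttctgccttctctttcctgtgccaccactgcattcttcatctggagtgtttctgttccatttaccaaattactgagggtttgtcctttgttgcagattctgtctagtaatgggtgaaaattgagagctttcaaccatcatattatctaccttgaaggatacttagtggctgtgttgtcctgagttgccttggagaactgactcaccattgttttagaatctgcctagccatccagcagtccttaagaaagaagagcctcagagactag
This pair was 56.4% identical over 273 aligned bases, and only the Trim34a window held the motif. In all, 6 of the 9 member genes had a match (Trim34a, Trim5, Trim12a, Trim12c, Trim30a and Trim30d), against 3.44% of 32851 mouse promoter windows. The near-identical windows of Trim5, Trim12a and Trim12c, and of Trim30a and Trim30d, repeat a match, so the 6 are not independent. The Trim30b window, without a match, follows the RefSeq start (104358646), where GENCODE has 104369884. No member window held the E-box CACGTG, to which clock factors bind, and 7.15% of all windows did. A match is a run of letters and not a shown binding site.

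Libraries held 30782166 to 92613500 reads counted on genes (median 66094896). Reads counted were those that could be placed once, and near-identical copies leave less sequence for that. Of the 50-base words in its transcripts, Trim34a shared 39.8% with another gene and Trim34b 56.8%, all of them with each other. Trim12c shared 33.0% of its words, and 24.2% were found in Trim5. The shares were 10.4% for Trim12a, 7.49% for Trim30d, 5.98% for Trim30a, 1.505% for Trim6 and 0.550% for Trim30b. By this measure, taken on mm10 alone, Trim34a against Trim34b, and Trim12c against Trim5, are the least certain splits. How reads from a chromosome 7 of another strain would be placed or counted was not tested. Strand use in the counting was not given in the sources used here, but Trim12a and its antisense neighbour Gm15133 share no exon bases.

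The labelled cell type was checked with marker genes. The summed level of 9 neutrophil markers ran from 69375 to 149716 CPM (reads of a gene over those of the whole library, after TMM scaling for depth and composition), and was lowest in the library labelled Bmal1 Mye-/- IMQ replicate 1, also the one with the highest sum of 8 monocyte markers (1856 CPM against 135 to 446 in the other 19). Sums over the other lists ran from 37.4 to 96.3 CPM (macrophage), 4.88 to 25.0 (B lineage), 6.16 to 24.7 (T and NK), 21.2 to 626 (erythroid), 21.6 to 207 (eosinophil, of which 21.6 to 42.3 in WT IMQ and 43.1 to 207 in Bmal1 Mye-/- IMQ) and 10.1 to 78.7 (plasmacytoid dendritic cell, whose list holds the interferon-stimulated Bst2). The eosinophil sums thus did not overlap between genotypes with IMQ. Of the 8 eosinophil genes, 6 had a log2 fold change above 0 and 1 did not overlap between genotypes. The granule genes Epx and Prg2 passed the test as higher in Bmal1 Mye-/- (log2 fold changes 2.97 and 2.54, edgeR), where 0.292% of all genes passed in either direction. What eosinophil RNA contributes to the genotype values with IMQ was not tested. In RNA from isolated cells, fewer cells of a type and less RNA per cell cannot be told apart. Arntl was at 1.35 ± 0.322 CPM in untreated WT and 0.721 ± 0.240 in untreated Bmal1 Mye-/- (SD, n = 5), and Lyz2, which carries the Cre, at 11408 ± 593 and 135 ± 29.8. With IMQ, Arntl was at 1.11 ± 0.474 CPM in WT and 0.702 ± 0.477 in Bmal1 Mye-/-. Its groups overlapped in both states, where untreated Bmal1 Mye-/- replicate 1 held 1.10 CPM and untreated WT replicate 4 held 0.895. The library labelled Bmal1 Mye-/- IMQ replicate 1 held 1.52 CPM of Arntl, above 4 of the 5 WT IMQ libraries, and so went against its label on the targeted gene, although these counts cover the whole gene and not the floxed part alone. The same library held 85.7 CPM of Lyz2, where the lowest WT IMQ library held 2465. Without it, 4 members still did not overlap between genotypes with IMQ, and the log2 fold changes of Trim12a and Trim30d were -8.24 and -6.65.

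WT neutrophils expressed 6 of the 7 counted members well above Trim6. Per kb of exon, untreated WT cells held most Trim12c (41.8 ± 7.21 CPM per kb, SD, n = 5) and Trim30a (37.7 ± 6.38), which differed by less than their SDs. Trim30b (21.5 ± 3.18), Trim30d (18.9 ± 4.61) and Trim12a (17.1 ± 2.74) followed, again neighbours within their SDs, then Trim34a (9.79 ± 1.85) and Trim6 (0.576 ± 0.296). In untreated Bmal1 Mye-/- cells Trim12c (50.9 ± 2.54 CPM per kb) and Trim30a (29.8 ± 3.65) still led. Trim30b (4.81 ± 0.396), Trim34b (4.52 ± 0.561) and Trim34a (3.97 ± 0.366) came next, and Trim30d (0.187 ± 0.0287), Trim6 (0.109 ± 0.0568) and Trim12a (0.0643 ± 0.0158) last.

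**Figure D1:**
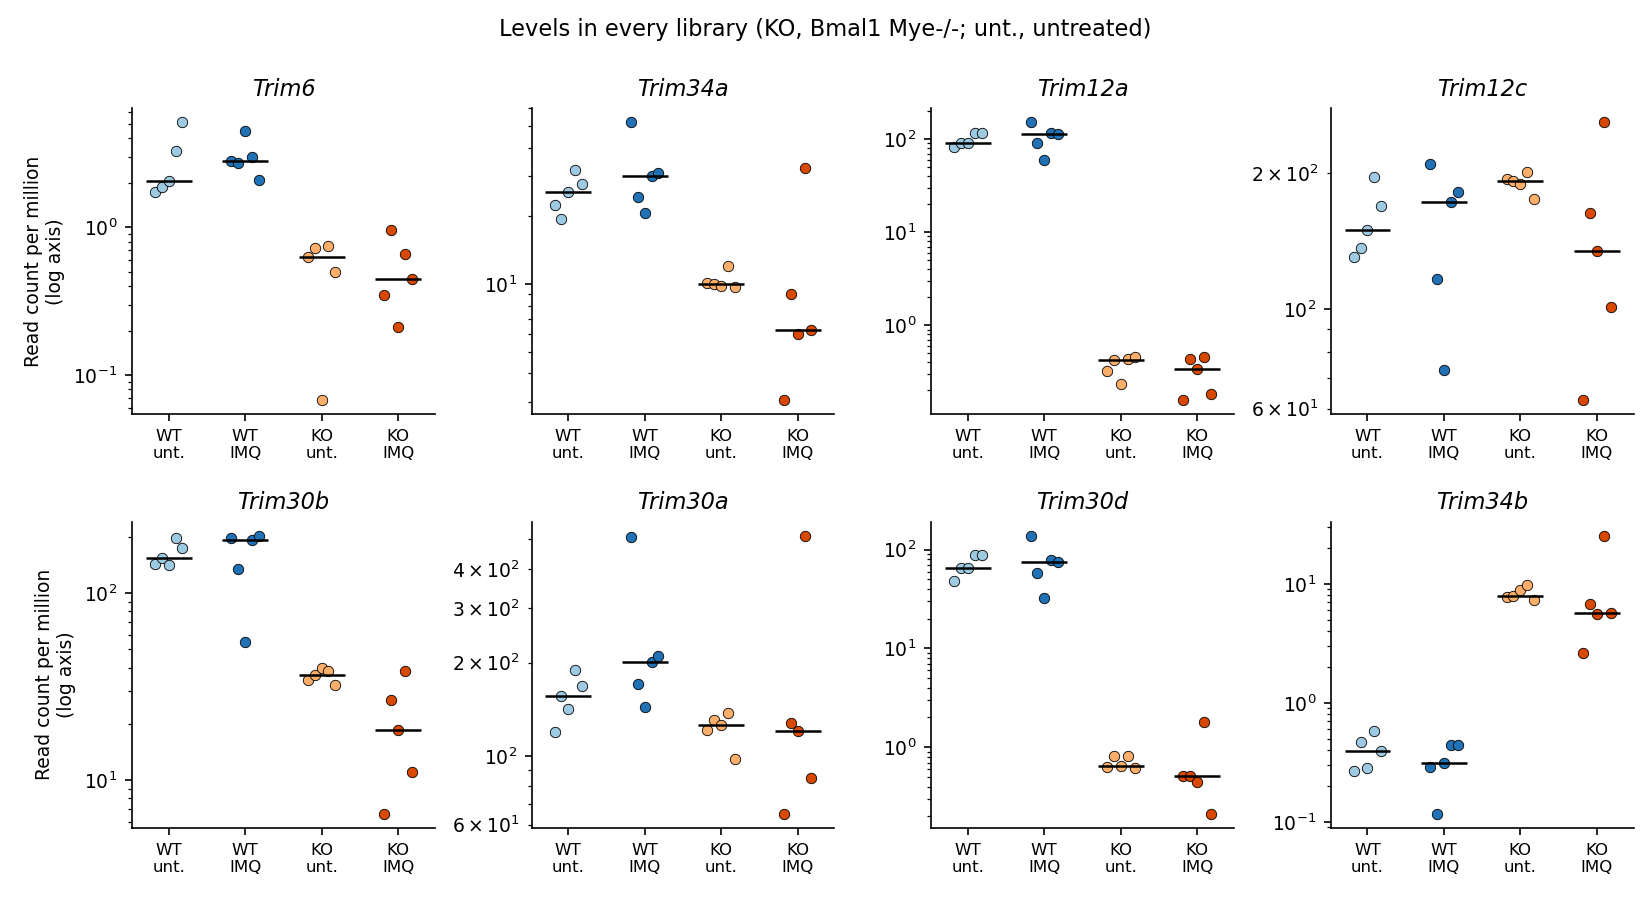
Level in CPM, on log axes that differ between panels, of the 7 counted members and Trim34b in every library; points are libraries, set side by side by replicate number, and bars are group medians. Trim12a and Trim30d lie far lower in every Bmal1 Mye-/- library (KO) than in any WT library, Trim34b lies higher, and Trim12c overlaps between all groups.

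Trim12a, a TRIM5-like gene, showed the widest gap between genotypes. In untreated WT it was at 81.8, 90.0, 91.1, 115 and 117 CPM in replicates 1 to 5, and in untreated Bmal1 Mye-/- at 0.320, 0.421, 0.236, 0.430 and 0.452 CPM, where 23, 39, 7, 23 and 31 reads were counted. With IMQ the WT values were 153, 91.5, 59.4, 117 and 113 CPM and the Bmal1 Mye-/- values 0.156, 0.437, 0.337, 0.454 and 0.184. The lowest WT library thus lay far above the highest Bmal1 Mye-/- library in both states. The log2 fold change (Bmal1 Mye-/- against WT) was -8.01 (SE 0.32) untreated and -8.44 (SE 0.33) with IMQ.

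Its partner Trim12c did not share this gap. It was at 130 to 196 CPM in untreated WT and 175 to 201 CPM in untreated Bmal1 Mye-/-, a log2 fold change of 0.28 (SE 0.29), and at -0.06 (SE 0.29) with IMQ. Trim12a held 38.8 ± 1.52% of the reads of the pair in untreated WT (SD, n = 5) and 0.196 ± 0.0517% in untreated Bmal1 Mye-/-. Summed, Trim12a and Trim12c were at 255 ± 41.9 CPM in untreated WT and 191 ± 9.47 in untreated Bmal1 Mye-/-.

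Trim30d followed Trim12a in size. Its level was 47.6, 65.7, 65.5, 87.9 and 88.7 CPM in the untreated WT replicates and 0.625, 0.820, 0.640, 0.823 and 0.613 CPM in the untreated Bmal1 Mye-/- ones. With IMQ it was 139, 58.7, 32.7, 79.0 and 75.7 CPM in WT and 0.506, 0.506, 0.444, 1.79 and 0.211 in Bmal1 Mye-/-. Again no WT and Bmal1 Mye-/- values overlapped, with log2 fold changes of -6.65 (SE 0.50) untreated and -6.77 (SE 0.50) with IMQ. Trim30a, whose promoter window is nearly the same, was at 155 ± 26.2 CPM in untreated WT and 123 ± 14.99 in untreated Bmal1 Mye-/- (log2 fold change -0.34, SE 0.44), with overlapping values. The reads left on Trim30d in Bmal1 Mye-/- cells made up 0.247% to 0.774% of the reads of Trim30a and Trim30d together, against 18.5% to 34.5% in WT.

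Trim30b stood between these extremes. It was at 162 ± 23.9 CPM in untreated WT and 36.2 ± 2.98 in untreated Bmal1 Mye-/-, and at 156 ± 62.9 and 20.3 ± 12.7 CPM with IMQ (SD, n = 5 each). The log2 fold changes were -2.16 (SE 0.37) and -2.94 (SE 0.39), and the highest Bmal1 Mye-/- value (39.7 CPM) lay below the lowest WT value (54.8 CPM). Trim30b was annotated with different extents by RefSeq and GENCODE, so its level per kb is the least sure of the set.

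Trim6, at the plus-strand end, was scarce in both genotypes. It was at 1.73 to 5.17 CPM in untreated WT and 0.0673 to 0.749 CPM in untreated Bmal1 Mye-/-, where the lowest library had 2 reads. Its log2 fold changes were -2.37 (SE 0.46) untreated and -2.53 (SE 0.47) with IMQ, with no overlap in either.

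Trim34a and its copy Trim34b differed in opposite directions. Trim34a was at 25.4 ± 4.81 CPM in untreated WT and 10.3 ± 0.948 in untreated Bmal1 Mye-/- (log2 fold change -1.30, SE 0.44). Trim34b, which is not a member, was at 0.267, 0.467, 0.281, 0.576 and 0.394 CPM in untreated WT and 7.81, 7.86, 8.95, 9.86 and 7.29 CPM in untreated Bmal1 Mye-/-. All Bmal1 Mye-/- values lay above all WT values, a log2 fold change of 4.39 (SE 0.51, adjusted p = 5.58e-05, edgeR quasi-likelihood). With IMQ it was 4.83 (SE 0.52, adjusted p = 2.83e-05 from the same edgeR test). Trim34b lies inside the cluster and was picked with earlier results of these data known, so these p-values are not an independent test. Trim34b held 42.8% to 48.4% of the reads of the pair in all 10 Bmal1 Mye-/- libraries and 0.477% to 2.35% in the 10 WT libraries. The summed pair was at 25.8 ± 4.87 CPM in untreated WT and 18.6 ± 1.89 in untreated Bmal1 Mye-/-, a log2 fold change of -0.47 (SE 0.42).

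**Figure D2:**
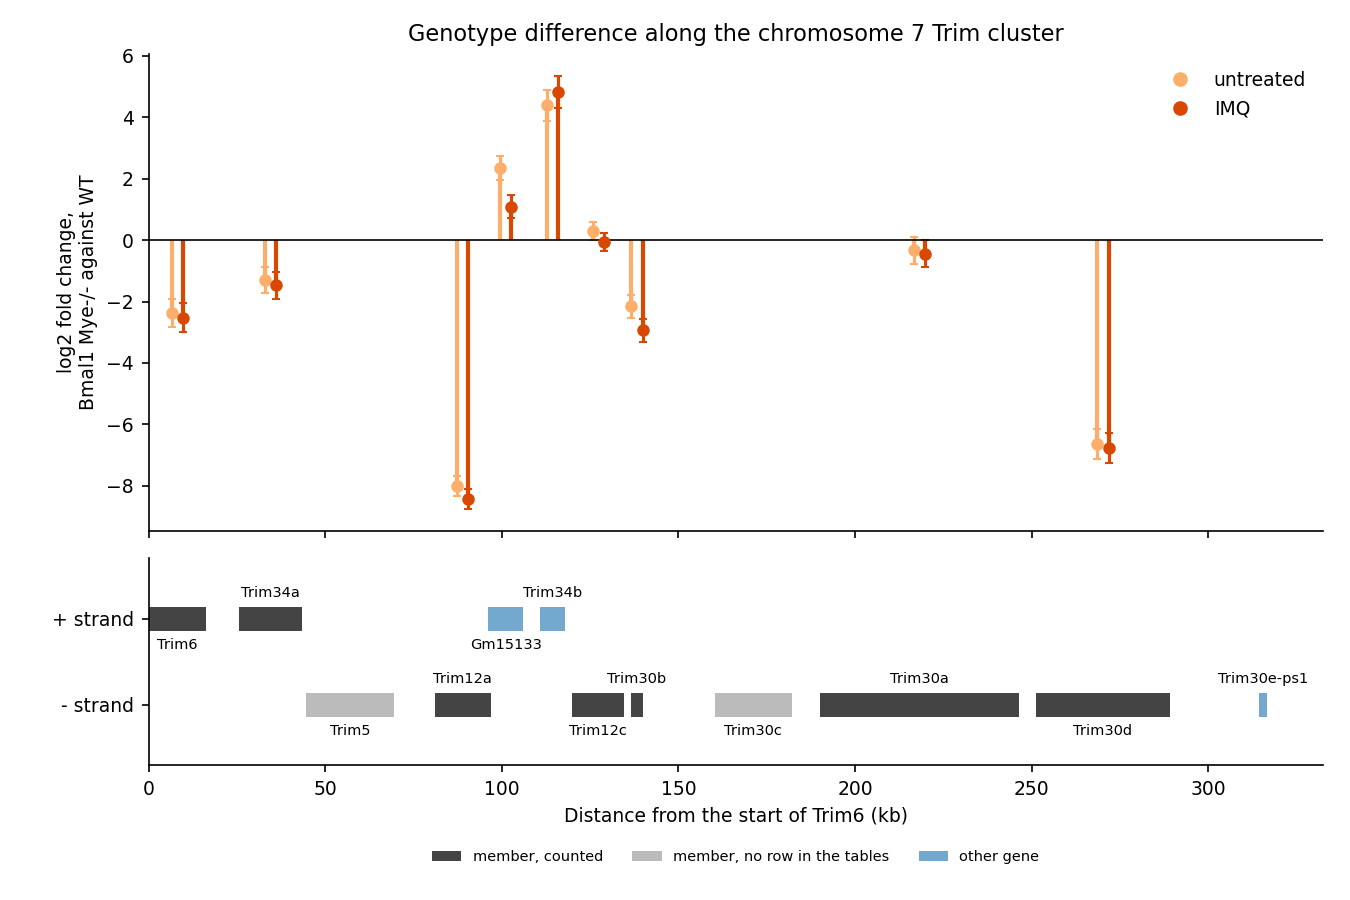
Upper panel, log2 fold change of Bmal1 Mye-/- against WT with its standard error, untreated and with IMQ, at the middle of each gene; lower panel, gene extents and strands in kb from the start of Trim6. The lowest values, near -8 and -7, belong to Trim12a and Trim30d, and the highest, above 4, to Trim34b, which sits between them.

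Counted over the members, 5 of 7 did not overlap between genotypes when untreated (Trim6, Trim34a, Trim12a, Trim30b and Trim30d), where 1.52% of all 14030 genes did not. With IMQ it was 4 of 7, Trim34a dropping out, against 1.07% of all genes. The members were chosen for this contrast, so nothing is read from these counts. The median log2 fold change of the 7 was -2.16 untreated and -2.53 with IMQ, against 0.00 and 0.03 over all genes. The 7 members with Trim34b made 671 ± 111 CPM in untreated WT and 369 ± 28.02 in untreated Bmal1 Mye-/-.

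**Figure D3:**
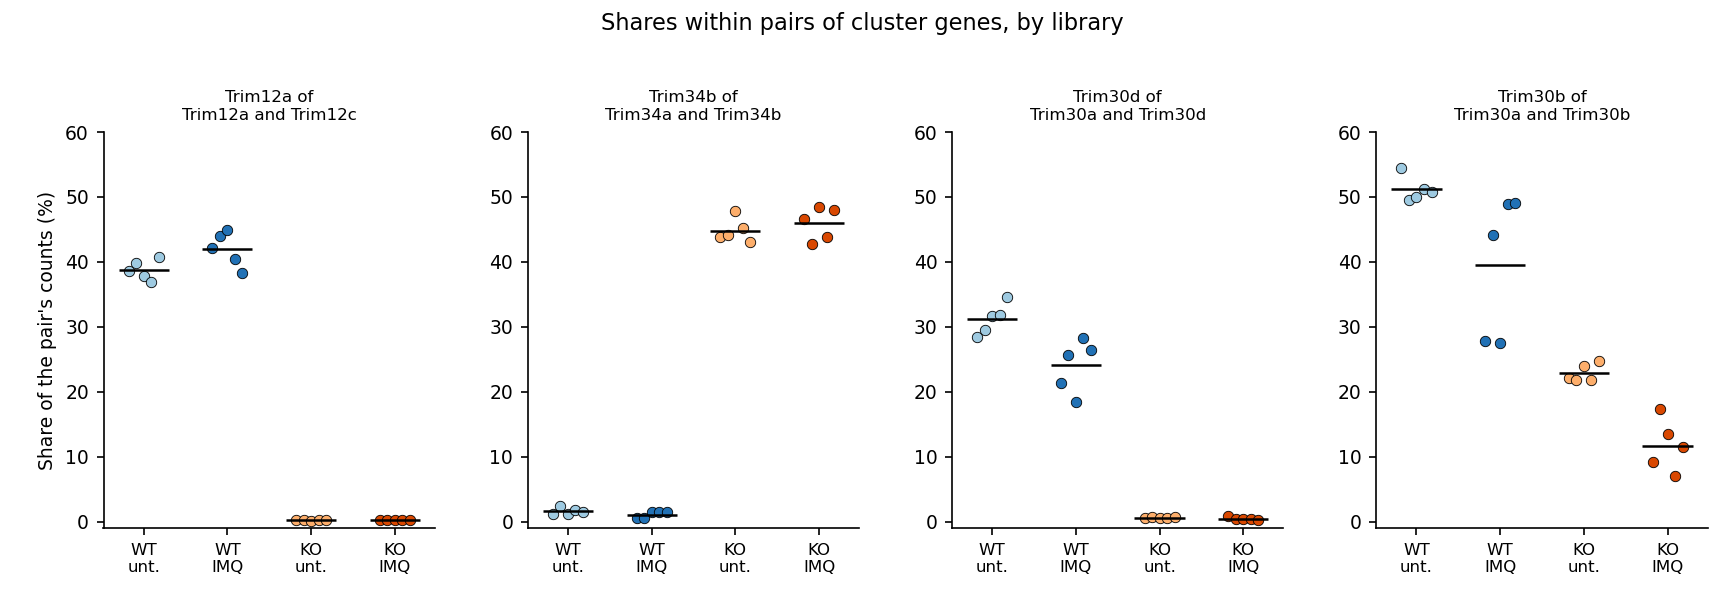
Share of the reads of a pair of genes that fell on the first one, in percent, in every library (KO, Bmal1 Mye-/-); points are libraries, set side by side by replicate number, and bars are group means. The shares of Trim12a, Trim34b and Trim30d separate the genotypes fully, and the share of Trim30b is lower with IMQ in both genotypes.

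Genes around and outside the cluster were tested for genotype. Of 106 genes with a row within 1 Mb of the cluster, most of them olfactory receptors, 6 passed the filter on low counts. Trim34b and Gm15133 were higher in untreated Bmal1 Mye-/- neutrophils (0.207% of all genes passed in either direction). Both lie inside the cluster, which was chosen for its genotype gap, so their p-values are not independent of that choice. Gm15133 was at 0.619 ± 0.0938 CPM in WT and 3.14 ± 0.196 in Bmal1 Mye-/-, a log2 fold change of 2.34 (SE 0.39, adjusted p = 0.00625 from edgeR). With IMQ its log2 fold change was 1.09 (SE 0.38, adjusted p = 0.199 from edgeR), and Trim34b alone passed (0.292% of all genes). The other 4 were Fam160a2, Gm5901, Cnga4 and Prkcdbp, none of which passed the test in either state. Fam160a2, the most abundant, was at 293 ± 23.3 and 298 ± 30.0 CPM in untreated WT and Bmal1 Mye-/-, a log2 fold change of 0.03 (SE 0.20).

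Other Trim genes were tested in the same way. Of 60, 41 passed the filter on low counts and 2 were higher in Bmal1 Mye-/- in each state, where 0.207% of all genes passed untreated and 0.292% with IMQ. They were Trim34b, which lies inside the cluster, and Trim68. Trim68, a ligase gene that lies on the same chromosome 1.53 Mb before the cluster (102677579 to 102687335), was at 1.26 ± 0.305 CPM in untreated WT and 3.33 ± 0.271 in untreated Bmal1 Mye-/-. Its log2 fold change was 1.40 (SE 0.24, adjusted p = 0.00721 from edgeR) untreated and 1.52 (SE 0.24, adjusted p = 0.00354 from edgeR) with IMQ. With all libraries, no other Trim gene passed the test as lower in Bmal1 Mye-/- in either state. The count that passed with IMQ, in either direction, rose to 11 when WT IMQ replicate 3 was left out, and to 6 when replicate 4 of Bmal1 Mye-/- IMQ was.

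IMQ was then compared with no treatment within each genotype, a contrast that did not choose the members. With libraries taken as unpaired, no member passed the test in WT or in Bmal1 Mye-/- neutrophils under edgeR, while 3.95% and 23.5% of all genes did. At an unadjusted p under 0.05 the counts were 0 in WT (22.3% of all genes) and 1 in Bmal1 Mye-/- (39.3%). DESeq2 gave 0 in both and limma 0 in WT and 1 in Bmal1 Mye-/-. With the replicate number as a block, edgeR also gave 0 and 1 (418 and 2919 of all 14030 genes). The median log2 fold change of the members was 0.11 in WT and -0.06 in Bmal1 Mye-/-, against 0.03 and 0.02 over all genes.

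The 1 member was Trim30b in Bmal1 Mye-/- cells. It was at 34.3, 36.5, 39.7, 38.2 and 32.2 CPM in the untreated replicates and 6.60, 26.9, 18.7, 38.4 and 11.1 CPM with IMQ. The IMQ values lay below all untreated ones in 4 of 5 libraries, and replicate 4 was the exception. The log2 fold change was -0.83 (SE 0.36, adjusted p = 0.0951 from edgeR), and -1.08 (adjusted p = 0.0385 from edgeR) with the replicate number as a block. Without Bmal1 Mye-/- IMQ replicate 4 it was -1.18 (adjusted p = 0.0217 from edgeR), and Trim34a also passed, at -0.74 (adjusted p = 0.0464 from edgeR) in place of 0.15. Replicate 4 held the highest IMQ value of both genes in this genotype, so these calls are descriptions. The lowest Trim30b value came from the library labelled replicate 1, which has the most monocyte RNA and an Arntl level against its label, and without it the log2 fold change was -0.59 (adjusted p = 0.204 from edgeR). What the monocyte markers contribute to it was not tested. In WT, Trim30b was at 141 to 198 CPM untreated and 54.8 to 203 CPM with IMQ (log2 fold change -0.05, SE 0.36).

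Trim30a gave the highest IMQ estimate in each genotype. In WT it was at 120 to 189 CPM untreated and at 511, 170, 144, 200 and 210 CPM with IMQ, a log2 fold change of 0.67 with a 95% interval from -0.19 to 1.53 (adjusted p = 0.387 from edgeR). In Bmal1 Mye-/- it was at 97.96 to 137 CPM untreated and at 64.9, 128, 120, 514 and 85.1 CPM with IMQ, at 0.57 with an interval from -0.28 to 1.43 (adjusted p = 0.335 from edgeR). A single library in each genotype was high, WT replicate 1 and Bmal1 Mye-/- replicate 4, and without these libraries the log2 fold changes were 0.23 and -0.28. For the other 5 members the IMQ estimates ran from -0.05 (Trim12c) to 0.32 (Trim34a) in WT and from -0.40 (Trim12c) to 0.15 (Trim34a) in Bmal1 Mye-/-.

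**Figure D4:**
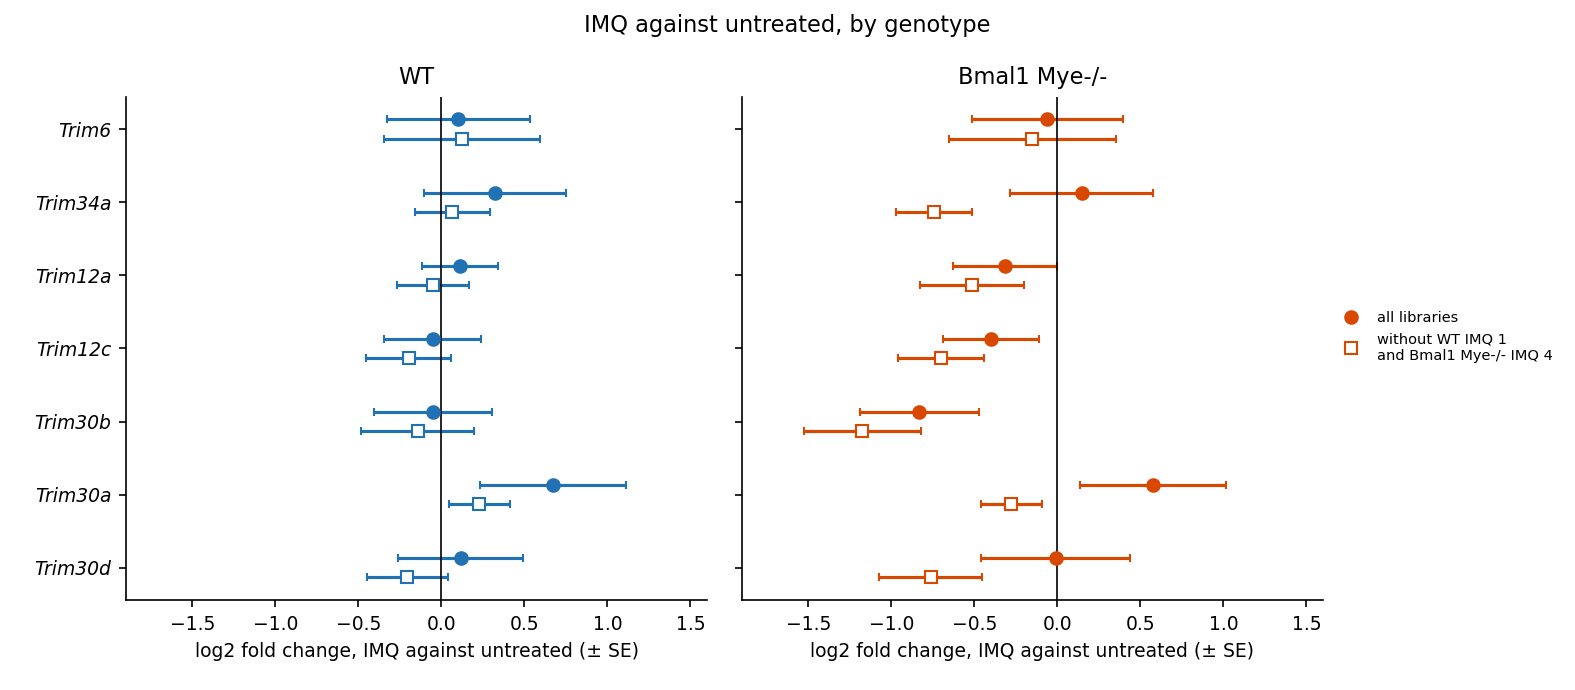
log2 fold change of IMQ against untreated with its standard error for each counted member, in WT (left) and Bmal1 Mye-/- (right); filled circles use all 20 libraries and open squares leave out WT IMQ replicate 1 and Bmal1 Mye-/- IMQ replicate 4. Trim30a turns from 0.57 to -0.28 and Trim34a from 0.15 to -0.74 in Bmal1 Mye-/- when these libraries are left out.

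The effect of IMQ did not differ detectably between genotypes for any member. No member passed the interaction test of edgeR (0.00% of all genes passed), none had an unadjusted p under 0.05 (5.14% of all genes), and DESeq2 and limma gave 0 as well. All 7 interaction estimates were below 0, from -0.10 (Trim30a) to -0.78 (Trim30b, SE 0.51, adjusted p = 0.640 from edgeR). The 7 share the same libraries and are not independent, and 4 of the estimates rose above 0 when a single library was left out (Trim6, Trim34a, Trim30a and Trim30d).

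Within a library, shares of paired genes are free of depth and scaling, and 4 pairs, chosen after the levels had been seen, were compared between IMQ and untreated. The share of Trim30b in the reads of Trim30a and Trim30b fell from 51.2 ± 1.92% to 39.5 ± 11.02% in WT and from 22.9 ± 1.40% to 11.7 ± 4.00% in Bmal1 Mye-/- (SD, n = 5). In both genotypes all 5 IMQ libraries lay below all 5 untreated ones, with p = 0.00794, the smallest the two-sided exact permutation test allows here, and an adjusted p = 0.0212 over 8 exact tests. These tests took the libraries as unpaired. Within the pairs of same-numbered Bmal1 Mye-/- libraries the share was lower with IMQ in 5 of 5. Any pairing would give this, as no values overlapped, so it adds no support. An exact paired test of 5 pairs cannot give a p under 0.0625, so under such a pairing no share could pass in either genotype. The share of Trim30d in the reads of Trim30a and Trim30d fell in WT from 31.2 ± 2.33% to 24.1 ± 4.02% (exact permutation p = 0.00794, adjusted p = 0.0212). Leaving out WT untreated replicate 1 gave an exact permutation p of 0.0556 for Trim30b in WT, and leaving out the library labelled Bmal1 Mye-/- IMQ replicate 1 gave 0.00794 for Trim30d in Bmal1 Mye-/-, which was 0.190 with all libraries. Of the other 5 tests none passed, among them the share of Trim34b in Bmal1 Mye-/-, at 44.8 ± 1.85% and 45.9 ± 2.49% (exact permutation p = 0.421), and that of Trim12a in WT, at 38.8 ± 1.52% and 42.0 ± 2.67% (exact permutation p = 0.0635).

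The members were set beside 20 interferon-stimulated genes, such as Ifit1, Isg15, Mx1 and Rsad2. IMQ moved none of the 20 past the test in either genotype with edgeR, DESeq2 or limma, and 2 in WT and 1 in Bmal1 Mye-/- had an unadjusted p under 0.05. Their median log2 fold change was 1.10 in WT and 0.60 in Bmal1 Mye-/-. The mean level of the list was 7.11 and 7.18 log2 CPM in WT IMQ replicate 1 and Bmal1 Mye-/- IMQ replicate 4, the same libraries that were high in Trim30a, and 3.49 to 5.03 in the other 18. Without both of them the median was 0.18 in WT, and in Bmal1 Mye-/- it was -0.84 with 11 of the 20 genes lower past the test, where 9.03% of all genes were. With Bmal1 Mye-/- IMQ replicate 4 alone left out, 4 were lower, and 9.30% of all genes. Both libraries were left out for their high level of these same genes, which by itself lowers the IMQ groups. The calls without them are therefore descriptions.

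Levels of Trim30a and Trim34a in Bmal1 Mye-/- neutrophils followed these genes from mouse to mouse by both measures tested, and those of Trim12c by Pearson's r alone. With the mean of each treatment group subtracted, Trim30a correlated with the list mean at Pearson r = 0.98 and Spearman rho = 0.98 over 10 libraries (permutation adjusted p = 0.00196 and 0.00532 over 14 relations). Trim34a gave r = 0.94 and rho = 0.90 (permutation adjusted p = 0.0101 and 0.00616), and Trim12c r = 0.84 and rho = 0.71 (permutation adjusted p = 0.0308 and 0.0864). Without the 2 libraries farthest from the median of the list, those labelled Bmal1 Mye-/- IMQ replicates 4 and 1, r was 0.89 for Trim30a, 0.60 for Trim34a and 0.69 for Trim12c. The other 4 members gave r from 0.28 (Trim6) to 0.91 (Trim30d) with no adjusted p under the threshold, and Trim30d dropped to 0.41 without replicate 4 of the IMQ group. The share of all genes with such a relation was not computed, so it is not read as particular to these members.

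In WT none of the 7 passed. Trim30a gave r = 0.88 and rho = 0.72 (permutation adjusted p = 0.132 and 0.106), and r = -0.42 once WT IMQ replicate 1 and WT untreated replicate 1 were left out, so the relation rests on those libraries. Leaving out these libraries turned r below 0 for 6 of the 7 members, all but Trim6 (0.57). Whether the relation differs between genotypes was not tested.

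**Figure D5:**
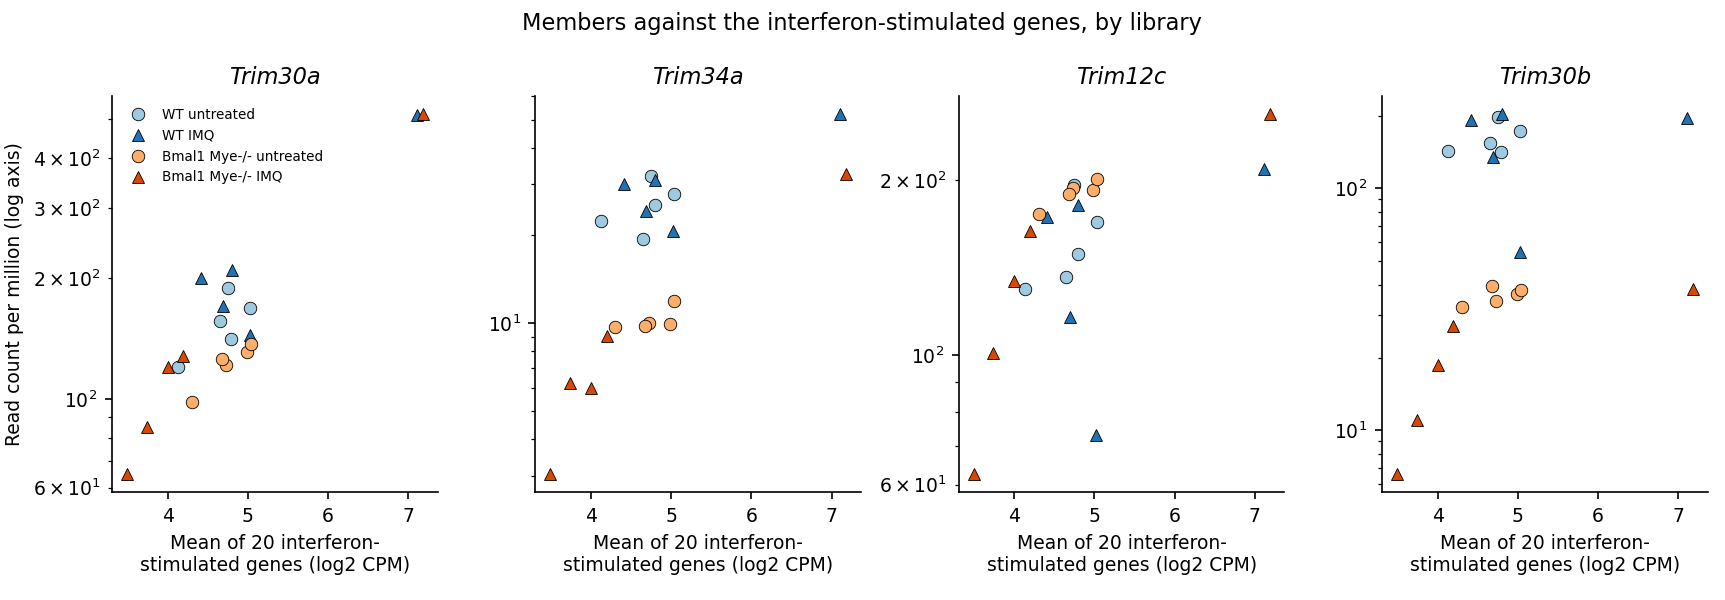
Level in CPM (log axes that differ between panels) of 4 members in each library against the mean log2 CPM of 20 interferon-stimulated genes in the same library; circles are untreated and triangles IMQ libraries. The 2 IMQ libraries near 7 on the horizontal axis hold 511 and 514 CPM of Trim30a. For Trim30a, r is 0.98 in Bmal1 Mye-/- and 0.88 in WT over all 10 libraries of a genotype. Without the 2 libraries of each genotype farthest from the median it is 0.89 and -0.42. A difference between genotypes was not tested.

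The genes most like each member across all 20 libraries, by Pearson's r of log2 CPM with each group's mean subtracted, were also listed, as a description over libraries that share depth and sorting. For Trim30a they were Tor1aip1 (r = 0.99), Parp10 (0.98) and the interferon-stimulated Oas2 (0.97). For Trim34a they were Gm1966 (0.99), Rnf34 (0.98) and Znfx1 (0.97). For Trim12c they were Otud5, Samhd1, a dNTP hydrolase that restricts retroviruses, and Trim30b, all at 0.97. Those of Trim30b were Xdh (0.98), Ccdc125 and Rgs18 (both 0.97), and those of Trim30d were Casp1, the protease of inflammasomes (0.96), Shisa5 and Ppm1k (both 0.94). Trim12a (Slc15a3, Nampt and Themis2, all 0.88) and Trim6 (Tktl1, 0.87, then Efnb2 and 6030443J06Rik, both 0.78) had less close partners. Among the members themselves r was highest between Trim12c and Trim30b (0.97) and between Trim30a and Trim34a (0.94), and lowest between Trim6 and Trim30b (0.08).

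Related genes of the pathway gave a background for the IMQ contrast. IMQ moved 3.95% of all genes past the test in WT and 23.5% in Bmal1 Mye-/-. In the latter the shares that passed were below that of all genes for the restriction, Toll-like receptor, other Trim and neighbour lists. They were above it for the monocyte and B lineage markers. Of 16 restriction and nucleic acid sensing genes, 3 rose with IMQ in WT, namely Apobec3, a cytidine deaminase that edits retroviral DNA (log2 fold change 0.65), Ifitm2 (0.67) and Ifitm6 (0.86), the last 2 coding for membrane proteins that limit viral entry. Those that rose in Bmal1 Mye-/- cells were also 3, Apobec3 (0.86), the DNA sensor Mb21d1 (1.52) and its adaptor Tmem173 (1.41). Of 20 genes of Toll-like receptor and NF-kB signalling, none passed in WT (3 at an unadjusted p under 0.05, by edgeR). Among them the inflammasome sensor Nlrp3 (-2.16), the cytokine Il1b (-2.02) and the NF-kB subunit Rela (-0.38) fell in Bmal1 Mye-/-, and the kinase Map3k7 rose (0.30). Of the 41 other Trim genes, Trim2 fell with IMQ in WT (-2.18), and in Bmal1 Mye-/- 4 rose (Trim59, Trim46, Trim37 and Trim27, from 0.72 to 1.43) and 3 fell (Trim2, -2.04, Trim23 and Trim39). Of the 6 neighbours, Cnga4 rose in WT (1.25) and in Bmal1 Mye-/- (0.94). Also in Bmal1 Mye-/-, 6 of 8 monocyte markers passed the test as higher with IMQ, but their sum was high in the library labelled replicate 1 alone (1856 CPM) and its median was 287 CPM with IMQ against 335 untreated. Without that library 15.4% of all genes passed in place of 23.5%. The part of monocyte RNA in the changes of these lists was not tested.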

How the data were processed

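RNA of bone marrow neutrophils, isolated by negative selection, was sequenced from poly(A) libraries in 20 mice, 5 per group. The authors deposited whole-number read counts per gene for each library. Their processing notes name STAR 2.7.8a, HTSeq 2.0.1 and mm10, whereas the methods of the study name TopHat. The annotation and strand setting were not given in the sources used here, and replicates were not pooled. Reads placed more than once (4.37% to 6.50% of each library's total) and other rows that name no gene were left out.

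Counts were fitted with edgeR 4.0.16 (TMM factors, default filter on low counts, quasi-likelihood test, 4 group means) in R 4.3.3, with Benjamini-Hochberg adjustment over 14030 genes and a threshold of 0.05. Levels are TMM-scaled CPM, log2 values carry an offset of 0.1, and SE is the log2 fold change over the root of the F statistic. Levels per kb use GENCODE M21 exon unions. The fits were tested on simulated data. P-values measure the spread between these mice. Each edgeR p-value and SE rests on a single estimate of spread per gene, shared by all 4 groups. Those of the untreated contrast thus also hold the spread of the IMQ groups. For Trim34a in Bmal1 Mye-/- this was 11.4 ± 12.1 CPM with IMQ against 10.3 ± 0.948 untreated (SD). Correlations used 100000 permutations within treatment groups, and shares exact two-sided permutation tests. Promoters were read from RefSeq windows and aligned with Biopython 1.88.

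The members and all gene lists (interferon-stimulated, restriction, Toll-like receptor and NF-kB, 8 marker lists, other Trim genes, neighbours within 1 Mb) were chosen with earlier results of these data known. Named were all members, their 3 most alike genes, other Trim and neighbouring genes past the threshold between genotypes, Arntl and Lyz2, and list genes past the threshold. Replicate numbers come from the sample titles. Same-numbered untreated and IMQ libraries of Bmal1 Mye-/- deviated together (r from 0.197 to 0.358 in 5 pairs). Those of WT gave r from 0.0502 to 0.464. Differently numbered libraries were not compared, so pairing in 1 genotype alone was not shown. The main edgeR fits and the share tests took libraries as unpaired in both genotypes. Alternatives were DESeq2 1.42.0, limma 3.58.1 on log2(CPM + 0.1), RLE factors, other filters, fits of 2 groups, a replicate block, and fits without libraries. A joined table equal to the 20 files was not used.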

Additional observations from a re-analysis of the deposited data

Results flagged for a closer look

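Each of 28 groups of 5 libraries (7 members in 4 groups) was checked for a library standing apart. In 5 of them its gap to the nearest neighbour exceeded 0.71 of the range of the group, Dixon's critical value. Chance gives about 1 in 20 for independent groups, but the members share libraries and vary together. The share over all genes was not computed, so nothing is read from this count. Trim30a stood at 511 CPM in WT IMQ replicate 1, with the next library at 210 CPM, and at 514 CPM in Bmal1 Mye-/- IMQ replicate 4, with the next at 128 CPM. In the latter library Trim34a also stood apart, at 32.6 CPM against 9.01 CPM in the next, and Trim30d, at 1.79 CPM against 0.506. These 2 libraries also had the highest mean level of the interferon-stimulated genes. Trim34a in untreated Bmal1 Mye-/- replicate 4 was at 11.96 CPM against 10.03 in the next library, a small gap in a narrow group.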

How the results depend on the processing

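The gaps of Trim12a, Trim30d, Trim30b and Trim6 between genotypes kept their direction under every alternative run. Requiring 10 counts in every library removed Trim6 and Trim12a and left 3 members without overlap untreated and 2 with IMQ, 1 other Trim gene passing in each state, and 1 and 0 neighbours. Leaving out 1 library gave 5 to 6 members without overlap untreated and 4 to 6 with IMQ, 2 to 11 other Trim genes and 1 to 2 neighbours with IMQ, and in Bmal1 Mye-/- 0 to 2 members and 0 to 4 interferon-stimulated genes changed by IMQ. Under IMQ in Bmal1 Mye-/-, limma called 1 member, the replicate block 1, and the fit without the 2 libraries rich in interferon-stimulated RNA 2, with 11 interferon-stimulated genes. Without the 2 IMQ libraries nearest to untreated ones (WT replicate 5, Bmal1 Mye-/- replicate 2) 1 such gene passed. Fits of 2 groups left 1 other Trim gene with IMQ. The replicate block left 1 neighbour untreated, gave 418 genes against 554 in WT and 2919 against 3292 in Bmal1 Mye-/-, and changed no other call among IMQ results of members. The 2 rich libraries were picked for their high values, so calls made without them are descriptions. Some IMQ estimates changed sign, and the cause was not tested. Of these estimates, Trim34a in Bmal1 Mye-/- passed the test without the rich libraries (adjusted p = 0.0283, edgeR). In WT these were Trim12a (-0.00592 with limma, -0.052 without the 2 rich libraries) and Trim30d (-0.0641 with limma, -0.020 with the replicate block, -0.20 without the rich libraries). Those in Bmal1 Mye-/- were Trim30d (0.0081 with no filter, 0.00545 in the fit of 2 groups, 0.095 without the libraries near untreated), Trim6 (0.15 with limma, 0.017 with the replicate block), Trim34a (-0.23 with limma, -0.37 with the replicate block, -0.74 without the rich libraries) and Trim30a (-0.28 without the rich libraries). The Trim6 interaction was 0.036 with limma. Leaving out 1 library gave, in WT, -0.086 to 0.43 for Trim6, -0.052 to 0.26 for Trim12a, -0.20 to 0.12 for Trim12c, -0.17 to 0.16 for Trim30b and -0.21 to 0.30 for Trim30d. The ranges in Bmal1 Mye-/- were -0.35 to 0.15 for Trim6, -0.74 to 0.40 for Trim34a, -0.28 to 0.80 for Trim30a and -0.76 to 0.23 for Trim30d. For the interaction it gave -0.47 to 0.054 for Trim6, -1.06 to 0.10 for Trim34a, -0.94 to 0.37 for Trim30a and -0.87 to 0.22 for Trim30d. The r with interferon-stimulated genes in WT ran from -0.051 to 0.74 for Trim12a, -0.14 to 0.56 for Trim12c and -0.30 to 0.36 for Trim30b. Between genotypes with IMQ, Trim34a ran from -2.38 to -1.22 and Trim30a from -1.30 to 0.01. Counts of 2 to 138 reads limit Trim6, Trim12a and Trim30d in Bmal1 Mye-/-.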
